A study of Mus musculus with 8 samples.

Results

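Fshr, Lhcgr, Inha and Inhba were followed as 4 transcripts among the 110473 listed in each RNA table of granulosa cells from mice. These cells line the follicle and nourish the oocyte within it. They were chosen by identifier: ENSMUST00000035701 for Fshr (2079 bases), ENSMUST00000024916 for Lhcgr (2553 bases), ENSMUST00000037330 for Inha (1475 bases) and ENSMUST00000042603 for Inhba (6390 bases). The pairing of these identifiers with gene names belongs to that choice, since no table of gene names here lists transcript identifiers. Each gene is thus represented by a single transcript, and reads that kallisto gave to other transcripts of the same gene are not counted here. The estimated counts of Fshr, Lhcgr and Inha were whole numbers in all 12 libraries (within 1e-06), whereas those of Inhba were fractional in 11 of 12, so some of the Inhba reads were shared with another listed transcript.

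The study asked how the transcriptional program that depends on the nuclear receptor LRH-1 (NR5A2) changes across the ovulatory signal. All 4 RNA groups came from C57BL/6 mice aged 22 to 25 days that carried floxed Nr5a2 (Nr5a2 f/f) and were primed with 5 IU of equine chorionic gonadotropin (eCG), a hormone that makes follicles grow. Controls (CTL, Nr5a2 f/f Amhr2 Cre/-) have no Cre, and in conditional knockouts (cKO, Nr5a2 f/f Amhr2 Cre/+) Cre is driven by the gene of the type II receptor for anti-Müllerian hormone, which per the labels removes LRH-1 in granulosa cells from the primary follicle on. Cells were taken by puncture of the ovary at 0 h, called before hCG, or 4 h after a further injection of 5 IU of human chorionic gonadotropin (hCG), given 44 h after eCG. Each of the 4 groups holds 3 libraries. Nothing in the labels says that they came from separate animals or pools, so every p-value measures only the spread between these libraries. Nr5a2 itself and marker genes of other ovarian cells are not analysed here, because no transcript could be paired with them. In bulk RNA, fewer cells of a type and less RNA per cell cannot be told apart.

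FSHR and LHCGR are the G protein-coupled receptors through which granulosa cells sense follicle-stimulating hormone and luteinising hormone. hCG acts through LHCGR, and both receptors signal mainly through cyclic AMP. INHA is the alpha chain of the inhibins and INHBA the beta A chain: alpha with beta A gives inhibin A, which restrains release of follicle-stimulating hormone from the pituitary, while a pair of beta A chains gives activin A, which promotes it. High INHA is a classical mark of granulosa cells in growing follicles. LRH-1 binds DNA as a monomer at sites with the core TCAAGG.

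Fshr and Lhcgr are neighbours on chromosome 17, with 2 pseudogenes and no protein-coding gene listed between them in RefSeq's GRCm38.p6 table; Inha lies on chromosome 1 and Inhba on chromosome 13. RefSeq's promoter table held 1 entry for each of the 4 genes. The 250 bases before the listed start site are shown for both receptors and for Inhba, the 3 members with a pair of groups whose libraries did not overlap. They are from GRCm38.p6, read 5′ to 3′ on the strand of the gene, at chr17:89200676-89200925 (minus strand) for Fshr, chr17:88792015-88792264 (minus strand) for Lhcgr and chr13:16011601-16011850 (plus strand) for Inhba. Capitals mark matches to TCAAGG or to the E-box CACGTG.
Fshr: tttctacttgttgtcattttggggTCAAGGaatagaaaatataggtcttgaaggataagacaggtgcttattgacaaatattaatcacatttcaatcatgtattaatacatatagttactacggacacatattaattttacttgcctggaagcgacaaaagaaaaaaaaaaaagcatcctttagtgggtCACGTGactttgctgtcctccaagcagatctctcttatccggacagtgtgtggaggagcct
Lhcgr: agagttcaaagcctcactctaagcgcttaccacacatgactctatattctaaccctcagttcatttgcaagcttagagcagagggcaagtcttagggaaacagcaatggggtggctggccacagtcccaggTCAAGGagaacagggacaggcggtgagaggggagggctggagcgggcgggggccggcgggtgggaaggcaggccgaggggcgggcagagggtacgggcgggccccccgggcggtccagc
Inhba: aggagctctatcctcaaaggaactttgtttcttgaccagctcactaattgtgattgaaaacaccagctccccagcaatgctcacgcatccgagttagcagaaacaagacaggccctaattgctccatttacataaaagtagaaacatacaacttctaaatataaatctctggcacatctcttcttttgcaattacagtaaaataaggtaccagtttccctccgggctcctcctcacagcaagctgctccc
The Fshr window held TCAAGG from 226 bases and CACGTG from 61 bases before the start site, and the Lhcgr window held TCAAGG from 119 bases before it. Neither the Inhba nor the Inha window held a match. The listed start sites were not checked against the first bases of the 4 transcripts. The Inha window may lie inside the gene, so its letters are not read as those of the Inha promoter. Both strands were searched for TCAAGG (in 12.5% of the 32851 promoters of this length), TCAAGGTCA, which contains it (0.387%), the cyclic AMP response element TGACGTCA (1.55%), its shortened form TGACG (17.8%) and CACGTG (6.02%). The TGACG, TGACGTCA and TCAAGGTCA letters were found in none of the 4 windows. CCAAT (33.8%) was matched in the Inha window only, and AGATAA (9.99%) in none of the 4. A match describes the letters and is not a binding site. The motifs were chosen with the sequences in view, and the deposited LRH-1 and FAIRE peaks, which are in mm9, were not placed against these windows.

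Libraries differed strongly within groups, and this sets what can be said of any single transcript. Totals of estimated counts ran from 9250965 to 23753060. Over the 16693 tested transcripts that averaged 5 TPM or more (a unit scaled for transcript length and library total), the median SD between libraries of a group was 2.18 on the log2(TPM + 1) scale. The 4 members were steadier, at 1.62 for Fshr, 1.11 for Lhcgr, 0.938 for Inha and 0.71 for Inhba. Among the 500 transcripts closest in mean level, 97.2% had a larger SD than Inhba, 92.6% than Lhcgr, 89.6% than Inha and 76% than Fshr. For Inha these are not matched in level, as most are far less abundant. Its mean was 11.4 on this scale, against a median of 6.05 over the 834 most abundant of these transcripts. Replicate 1 of both CTL groups and of cKO before hCG is called standing apart below. The deviations of these 3 libraries from their group means correlated with each other across these transcripts at r = 0.238 to 0.344. Those of replicate 3 in the same groups correlated more weakly, at r = 0.141 to 0.174. Such correlations do not by themselves make a library an outlier in its group. Replicate numbers are those in the names of the library tables. The median transcript was lower after hCG, by -0.77 in CTL and -1.52 in cKO in the fit to counts (log2), and by -0.51 and -0.90 on the log2(TPM + 1) scale. Changes after hCG should be read against these medians.

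Fshr was abundant before hCG in CTL and low after it. Its 3 CTL libraries held 112, 170 and 69.2 TPM before hCG and 24.04, 2.61 and 9.58 TPM after it. Every library before hCG was above every library after it, with means of 117 ± 50.7 and 12.1 ± 10.9 TPM (SD, n = 3), a 9.71-fold lower mean. In cKO the libraries held 84.9, 23.0 and 21.6 TPM before hCG and 33.6, 0 and 11.7 TPM after it. These groups overlapped, because replicate 1 after hCG exceeded replicates 2 and 3 before it. The means were 43.2 ± 36.2 and 15.1 ± 17.1 TPM (SD, n = 3). The library at 0 (cKO replicate 2 after hCG) had 0 of 21987905 estimated counts for Fshr and at the same time held 1419 counts of Lhcgr. A limit of 3 counts would be 0.0806 TPM in this library, but means, folds and ratios used the 0 itself. The lowest other value rested on 79 estimated counts in CTL replicate 2 after hCG (95% Poisson interval 2.07 to 3.25 TPM), so the spread between libraries was far wider than counting error. Intervals of this kind cover counting error only.

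Lhcgr, the receptor that hCG itself engages, showed the same order of groups in CTL. CTL libraries held 174, 24.7 and 88.8 TPM before hCG and 15.4, 7.50 and 20.04 TPM after it. The groups did not overlap, although replicate 2 before hCG, at 24.7 TPM, lay close to the highest library after it. The means were 95.7 ± 74.7 and 14.3 ± 6.34 TPM (SD, n = 3), a 6.69-fold lower mean. cKO libraries held 44.0, 20.1 and 89.6 TPM before hCG and 5.26, 30.5 and 9.83 TPM after it. They overlapped, as replicate 2 was the lowest library before hCG and the highest after it. Their means were 51.2 ± 35.3 and 15.2 ± 13.5 TPM (SD, n = 3).

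Of the 32944 transcripts tested, 2752 (8.35%) had every CTL library after hCG below every CTL library before it. Among the 16693 with a mean of at least 5 TPM the first share was 7.46%. Both receptors belong to this minority, and neither inhibin subunit does. On the log2(TPM + 1) scale the Fshr change in CTL was -3.49, with 3.15% of all transcripts lower still, and that of Lhcgr was -2.37, with 10.6% lower still. In the fit to counts 33.4% of transcripts had a lower fold than Fshr and 36.2% a lower fold than Lhcgr. Averaged over CTL and cKO, where the median transcript differed by -0.70, Fshr differed by -2.87 after hCG (exact permutation p = 0.015, two-sided, time labels permuted within genotype, 6 libraries a side) and Lhcgr by -2.07 (exact permutation p = 0.015). The smallest p these 400 arrangements can give is 0.005, 8 such tests were made on single transcripts, and the p-values are not adjusted. Leaving out any 1 library kept these p-values between 0.005 and 0.04 for Fshr and between 0.01 and 0.04 for Lhcgr. Without the 3 libraries that stand apart the differences were -2.88 and -1.80 (exact permutation p = 0.117 and 0.0833, with 60 arrangements). The permutation tests are against no change, not against the median transcript, and were run on the members only. Small unadjusted p-values were common in this contrast. In limma on the same scale, 4878 of 32944 transcripts had an unadjusted p under 0.05. There Fshr had an unadjusted limma p of 0.0282 and Lhcgr of 0.0847.

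Fitted across the whole table, neither receptor passed. edgeR's quasi-likelihood test gave Fshr a log2 fold of -2.76 after hCG in CTL (SE 2.68, 95% interval -8.00 to 2.49, Benjamini-Hochberg adjusted p = 0.731) and Lhcgr -2.32 (SE 2.59, 95% interval -7.40 to 2.76, adjusted p = 0.793). Averaged over CTL and cKO, the edgeR folds were -1.39 for Fshr (95% interval -4.92 to 2.15, adjusted p = 0.69) and -1.53 for Lhcgr (95% interval -5.03 to 1.97, adjusted p = 0.64). Both lay at the median of all transcripts in that contrast, -1.45, with 50.6% and 49.2% of transcripts lower. In cKO the folds were -0.02 (95% interval -4.93 to 4.90) for Fshr and -0.74 (95% interval -5.61 to 4.13) for Lhcgr, with edgeR adjusted p of 1 and 0.92. The fit called 2 of 32944 transcripts (0.00607%) in CTL and 0 (0%) in cKO, where 6135 had an unadjusted p under 0.05 and DESeq2 called 4137. It takes the spread of each transcript from the trend over all transcripts, whose common coefficient of variation was 2.43. The scaling factors of this fit (TMM) ran from 0.544 to 1.505 and were lowest in cKO replicate 1 after hCG. The cKO folds of the receptors moved with the scaling. With library totals as the only scaling they were -1.23 for Fshr and -1.68 for Lhcgr, and on the log2(TPM + 1) scale -2.24 and -1.78. With RLE scaling factors the Fshr fold in cKO turned to 0.061, and without the 3 libraries that stand apart to 0.77. The hCG responses of CTL and cKO did not differ past the threshold, with interaction log2 values of 2.74 for Fshr (95% interval -4.33 to 9.81, edgeR adjusted p = 0.828) and 1.58 for Lhcgr (95% interval -5.31 to 8.47, adjusted p = 0.961), where 11 transcripts (0.0334%) were called. A difference of many-fold in either direction lies within these intervals.

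**Figure D1:**
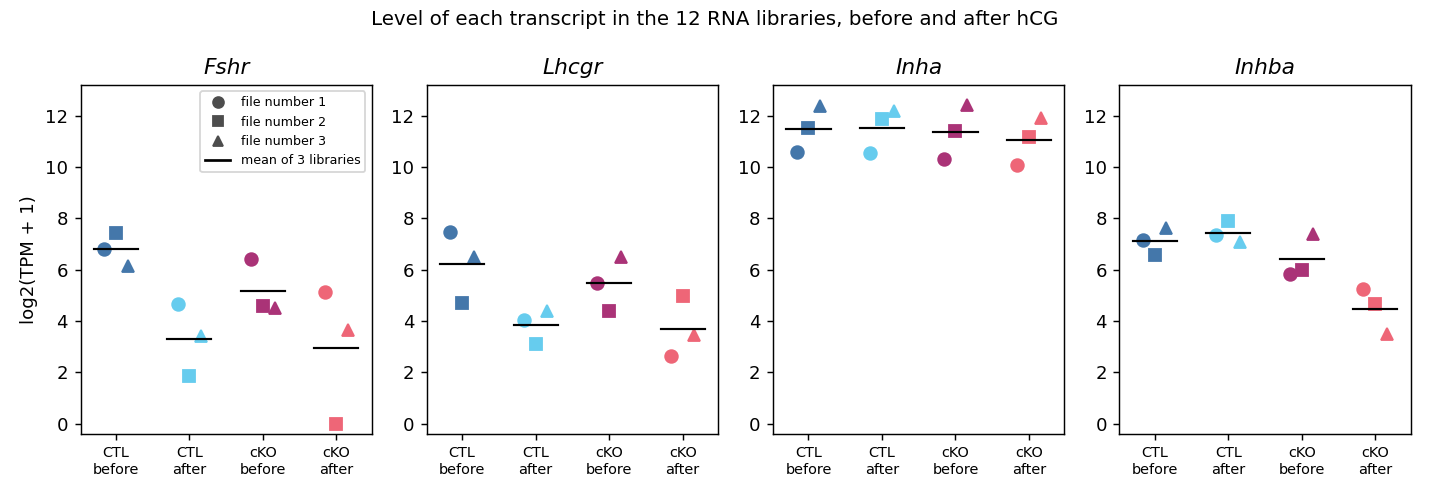
Level of Fshr, Lhcgr, Inha and Inhba in each of the 12 libraries on the log2(TPM + 1) scale, by group, with the marker giving the number in the name of the library table and the bar the mean of 3 libraries. In CTL the libraries of both receptors after hCG lie below all those before it, Inha stays at the top of the scale in every group, and Inhba is lowest in cKO after hCG.

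Between the genotypes both receptors overlapped at either time. Before hCG, 1.85% of tested transcripts (1.8% of those averaging 5 TPM or more) had every cKO library below every CTL library, and no member was among them. Before hCG the cKO mean of Fshr was 2.71-fold lower than in CTL, and 2 of the 3 cKO libraries, at 23.0 and 21.6 TPM, lay below all CTL libraries. The third, at 84.9 TPM, lay within the CTL range. For Lhcgr the cKO mean was 1.87-fold lower before hCG, and the cKO libraries spanned 20.1 to 89.6 TPM against 24.7 to 174 TPM in CTL. After hCG the genotypes had nearly the same means, of 12.1 and 15.1 TPM for Fshr and 14.3 and 15.2 TPM for Lhcgr. The edgeR folds (cKO against CTL) were -1.57 for Fshr and -1.13 for Lhcgr before hCG and 1.17 and 0.45 after it, all with intervals that include 0. The last pair turned negative on the log2(TPM + 1) scale, at -0.37 and -0.15. Averaged over both times on that scale, the cKO effect was -0.998 for Fshr (exact permutation p = 0.315, two-sided) and -0.45 for Lhcgr (exact permutation p = 0.475).

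The ratio of the receptors varied more between libraries of a group than between groups. As log2((Lhcgr + 1)/(Fshr + 1)) in TPM, it was 0.63, -2.74 and 0.36 in CTL before hCG, -0.61, 1.24 and 0.99 in CTL after it, -0.93, -0.18 and 2.00 in cKO before hCG and -2.47, 4.98 and -0.23 in cKO after it. All 4 groups overlapped. The hCG difference averaged over genotypes was 0.79 (exact permutation p = 0.555, two-sided, 6 libraries a side), and the cKO difference averaged over times was 0.55 (exact permutation p = 0.695). Both turned negative without cKO replicate 2 after hCG, the library with no Fshr count, at -0.26 and -0.50. With 4 tests made on ratios, none passed, and these p-values are not adjusted. Within 1 genotype or 1 time, 3 libraries against 3 cannot give a p under 0.1.

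Inha was the most abundant of the 4 in every library and ranked between the 8th and the 104th of all transcripts by TPM. Its libraries held 1539, 2904 and 5329 TPM in CTL before hCG and 1507, 3738 and 4645 TPM in CTL after it. In cKO they held 1277, 2726 and 5465 TPM before hCG and 1068, 2334 and 3867 TPM after it. The 4 groups overlapped, with means of 3257 ± 1920, 3296 ± 1615, 3156 ± 2127 and 2423 ± 1402 TPM (SD, n = 3). The edgeR fold of Inha was 0.51 after hCG in CTL (95% interval -1.48 to 2.51, adjusted p = 0.93). For cKO against CTL it was -0.09 before hCG (95% interval -2.08 to 1.90, adjusted p = 1) and -0.04 after it (95% interval -2.03 to 1.96, adjusted p = 1). For hCG in cKO it was 0.57 (95% interval -1.43 to 2.57, adjusted p = 0.824), which turned to -0.33 on the log2(TPM + 1) scale and -0.26 with library totals as the only scaling. These are the narrowest intervals of the 4 members.

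The Inha values followed the number of the library. Number 1 was the lowest and number 3 the highest in all 4 groups, and the values of each number did not overlap those of the others: 1068 to 1539 TPM for number 1, 2334 to 3738 TPM for number 2 and 3867 to 5465 TPM for number 3. Of the 16693 transcripts averaging 5 TPM or more, 82 (0.491%) had the same number lowest and the same number highest in all 4 groups, and 25 (0.15%) had number 1 lowest and number 3 highest. Within each number, cKO after hCG was the lowest of the 4 groups, at 1068, 2334 and 3867 TPM. These patterns were noticed after the values were seen, and the order within numbers was not tested as such. None of the other members shared it: for Fshr number 1 was highest in 3 of 4 groups and lowest in none, for Lhcgr number 2 was lowest in 3 of 4, and for Inhba each number was highest at least once. The labels do not say what a number stands for. Library totals ranged over 12867403 to 18286964, 10336427 to 21987905 and 9250965 to 23753060 counts for numbers 1, 2 and 3, and the mean fragment length implied by the effective lengths over 170 to 206, 147 to 221 and 173 to 185 bases. The part of these, and of any shared handling, in the Inha levels was not tested.

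**Figure D2:**
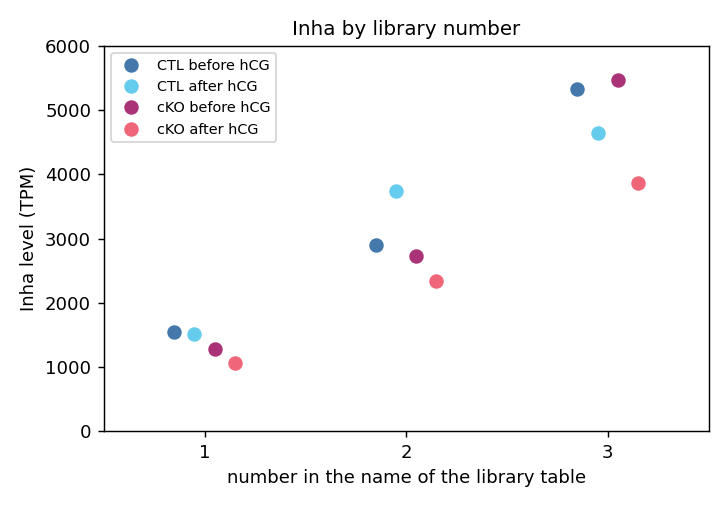
Inha level in TPM (vertical axis, linear, from 0) against the number in the name of the library table (horizontal axis), with 1 point per library coloured by group. Libraries numbered 1 lie between 1068 and 1539 TPM, those numbered 2 between 2334 and 3738 and those numbered 3 between 3867 and 5465, in all 4 groups.

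Inhba, the beta A chain, was lowest in cKO libraries after hCG. CTL libraries held 142, 93.4 and 198 TPM before hCG and 162, 234 and 134 TPM after it, and these groups overlapped. cKO libraries held 55.2, 62.1 and 167 TPM before hCG and 36.9, 24.6 and 10.2 TPM after it. All 3 cKO libraries after hCG were below all CTL libraries after hCG, with means of 23.9 ± 13.4 and 177 ± 51.3 TPM (SD, n = 3), 7.40-fold lower. They were also below all cKO libraries before hCG, whose mean was 94.8 ± 62.7 TPM, 3.97-fold higher. Before hCG the genotypes overlapped, as cKO replicate 3 lay within the CTL range, and the cKO mean was 1.52-fold below that of CTL (144 ± 52.4 TPM). Counting error was small beside these differences, since the lowest value rested on 1363 estimated counts.

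The separation after hCG was shared by few transcripts between the genotypes and by more between the times. Of the 32944 tested transcripts, 1019 (3.09%) had every cKO library after hCG below every CTL library after it, and 5659 (17.2%) had every cKO library after hCG below every cKO library before it. Among those with a mean of at least 5 TPM the shares were 3.77% and 14.4%. On the log2(TPM + 1) scale the cKO difference of Inhba after hCG was -2.97, with 3.28% of transcripts lower still. In the fit to counts 33.9% of transcripts had a lower fold than Inhba in this comparison. Averaged over both times it was -1.85 (exact permutation p = 0.015, two-sided, genotype labels permuted within time, 6 libraries a side, not adjusted), with p between 0.01 and 0.03 when any 1 library was left out. Without the 3 libraries that stand apart it was -1.71 (exact permutation p = 0.0667). The hCG difference averaged over genotypes was -0.80 (exact permutation p = 0.185). These permutation tests were run on the members only. For the average cKO effect, limma on the same scale gave 1279 of 32944 transcripts an unadjusted p under 0.05. Inhba was not among them, with an unadjusted limma p of 0.0916.

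Across the whole table Inhba did not pass either. The edgeR log2 fold of cKO against CTL after hCG was -2.29 (SE 1.66, 95% interval -5.54 to 0.97, adjusted p = 0.458), in a comparison that called 3 transcripts (0.00911%), and before hCG it was -0.73 (95% interval -3.85 to 2.39, adjusted p = 1), where 2 (0.00607%) were called. The edgeR fold after hCG was 0.93 in CTL (95% interval -2.20 to 4.06, adjusted p = 0.91) and -0.63 in cKO (95% interval -3.75 to 2.48, adjusted p = 0.883). In cKO the median transcript stood lower, at -1.52, and 56.3% of transcripts had a lower fold than Inhba. On the log2(TPM + 1) scale Inhba stood at -1.93 in cKO against a median of -0.90, with 23.2% of transcripts lower still. The interaction was -1.56 (95% interval -5.98 to 2.86, adjusted p = 0.859), so a different response in cKO was not shown. Averaged over genotypes the edgeR response was 0.15, of the opposite sign to the value on the log2(TPM + 1) scale. That average contrast called 57 transcripts (0.173%), and the average cKO contrast, in which Inhba stood at -1.51 (95% interval -3.75 to 0.74, adjusted p = 0.548), called 20 (0.0607%).

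**Figure D3:**
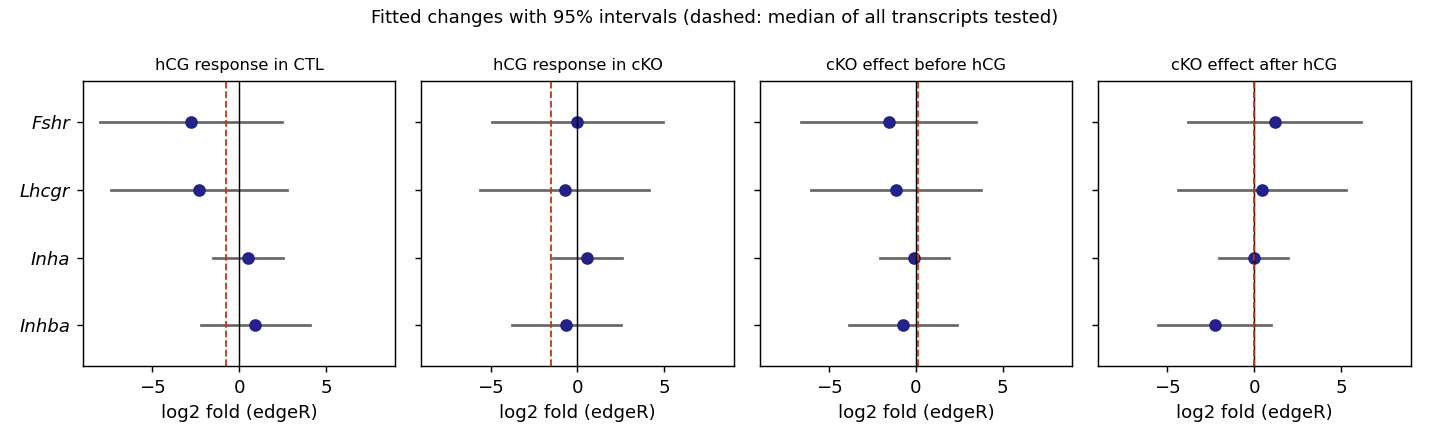
Fitted log2 fold of each member in 4 comparisons (points) with 95% intervals (lines), after hCG against before it and cKO against CTL. The intervals are normal approximations worked out from edgeR's quasi-likelihood test. The dashed line is the median of all transcripts tested, at -0.77 for the hCG response in CTL and -1.52 for that in cKO. All 16 intervals include 0. The points farthest below 0 are Fshr and Lhcgr for the hCG response in CTL and Inhba for cKO against CTL after hCG.

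Set against the alpha chain in the same library, where depth and scaling drop out, Inhba kept its order of group means but not its separation. The ratio (Inhba + 1)/(Inha + 1) in TPM was 9.28%, 3.25% and 3.73% in CTL before hCG and 10.8%, 6.28% and 2.92% in CTL after it. In cKO it was 4.39%, 2.31% and 3.07% before hCG and 3.55%, 1.10% and 0.289% after it. The range in cKO after hCG overlapped both CTL and cKO before hCG through its highest library, replicate 1. As log2 values the group means were -4.37 ± 0.82 and -4.10 ± 0.95 in CTL and -4.99 ± 0.46 and -6.59 ± 1.81 in cKO (SD, n = 3), before and after hCG. The cKO difference averaged over times was -1.55 (exact permutation p = 0.055, two-sided, 6 libraries a side), and the p was 0.045 with a pseudocount of 0.1 or with CPM (counts scaled to the library total) in place of TPM. Single libraries moved it between -1.09 (exact permutation p = 0.09, without cKO replicate 3 after hCG) and -1.99 (p = 0.02, without cKO replicate 1 after hCG). The Inha values followed the library number, and number 1 had the highest ratio in all 4 groups. The ratio did not follow the number throughout: before hCG, number 2 was lowest in CTL (3.25%) and in cKO (2.31%). The part of the Inha order in the ratio was not tested. Without the 3 libraries that stand apart, all of them numbered 1, the difference was -1.21 (exact permutation p = 0.15). The hCG difference averaged over genotypes was -0.66 (exact permutation p = 0.375).

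**Figure D4:**
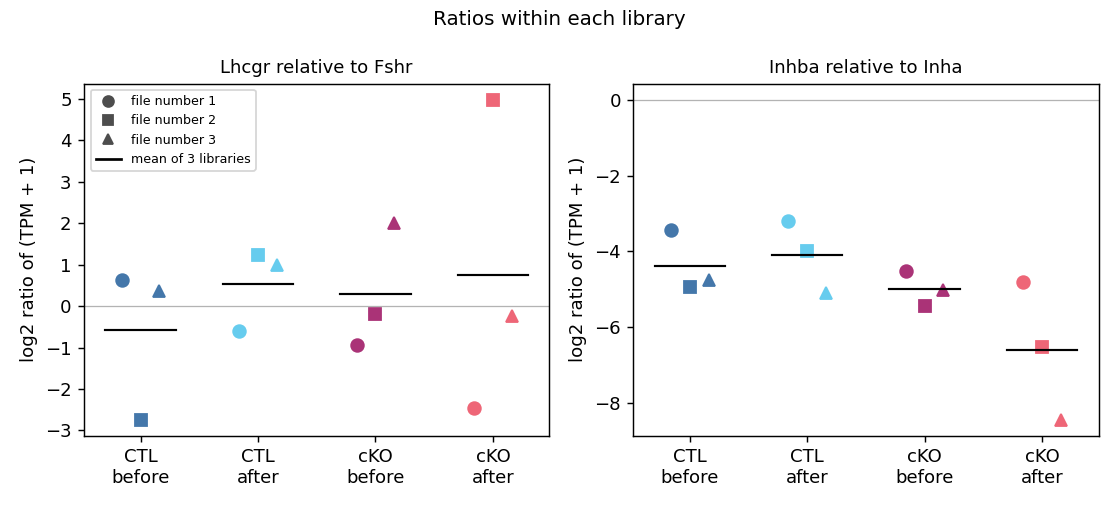
Log2 ratio of Lhcgr to Fshr (left) and of Inhba to Inha (right) within each library, from TPM + 1, by group, with the marker giving the number in the name of the library table and the bar the mean of 3 libraries. The receptor ratio spreads from -2.74 to 4.98 without order by group, and the subunit ratio has its lowest value, -8.43, in cKO after hCG.

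Ordered by group mean, Fshr ran from CTL before hCG (117 TPM) through cKO before hCG (43.2), cKO after hCG (15.1) and CTL after hCG (12.1), and Lhcgr from CTL before hCG (95.7) through cKO before hCG (51.2), cKO after hCG (15.2) and CTL after hCG (14.3). In both orders each group overlapped its neighbour. Inhba ran from CTL after hCG (177) through CTL before hCG (144) and cKO before hCG (94.8) to cKO after hCG (23.9), where only the last step was free of overlap. Among the 16692 other transcripts with a mean of at least 5 TPM, the one most like Fshr over the 12 libraries was ENSMUST00000017453 (Pearson's r = 0.943 of log2(TPM + 1)), and the one most like Lhcgr was ENSMUST00000005053 (r = 0.934). The highest r was 0.921 for Inha and 0.906 for Inhba. These are the best of many over 12 libraries that share depth and group, and they are given as a description; the tables used here give no gene name for either transcript.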

How the data were processed

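RNA from 12 libraries was used, 3 tables for each of 4 samples. Per the submitters' processing notes, Trimmomatic, TopHat2 2.0.12, kallisto, DESeq2 and the build mm9 were involved, with no role or order given. Per the file headers, the deposited tables hold kallisto's estimated counts and TPM for each transcript, with its length and effective length in bases. No source used here names the transcript set. The FAIRE and LRH-1 peak lists (BWA and mm9, and MACS2 2.1.0 for LRH-1, per the same notes) were not used, since no mm9 annotation was used here to place the 4 genes.

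The estimated counts were first rounded. The filter filterByExpr of edgeR 4.0.16 (run in R 4.3.3) retained 32944 of 110473 transcripts (95.9% of counts, all 4 members included). edgeR then scaled by TMM, fitted 4 group means over 12 libraries without a block and tested 7 contrasts with glmQLFTest. P-values were adjusted by Benjamini-Hochberg over all transcripts tested, with a threshold of 0.05. edgeR's test gives no SE, so each SE was worked out from the fold and the F statistic of the test. Intervals of folds are at 95%, from that SE and the normal distribution, and are approximate. Log2 values of TPM carry a pseudocount of 1, which understates changes of low values. Exact permutation tests on single values ran in Python 3.11.15 with numpy 2.4.6. The fits were tested on simulated counts. Alternatives were other scaling, filters and pseudocounts, DESeq2 1.42.0, limma 3.58.1 on TPM, a replicate block, fits on 2 groups and each library left out. A robust fit, the permutation tests of single transcripts and leaving out 3 libraries were added after the data were seen. The members, lists and tests were chosen with earlier results of these data known. Named were the 4 members and, for likeness, the transcript with the highest r of each, with at most 2 identifiers printed. The marker and pathway gene lists could not be matched to transcripts and were not run.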

Additional observations from a re-analysis of the deposited data

How the results depend on the processing

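In the fits across all transcripts, no member passed the threshold in any contrast under any of the up to 24 alternatives (lowest adjusted p 0.244, for Fshr and average hCG with limma and a pseudocount of 0.1). Of the member values with 1 library left out, 446 kept direction and side of the threshold, 30 changed sign and 4 came to pass it; under other settings 308 kept both, 35 changed sign, 2 came to pass and 3 no longer passed. Those that moved across the threshold were permutation tests of single transcripts or of the subunit ratio. Counts of calls are given in the order hCG in CTL, hCG in cKO, cKO before hCG, cKO after hCG, interaction, average hCG and average cKO, where the reported fit called 2, 0, 2, 3, 11, 57 and 20. They were 3, 0, 1, 2, 9, 65 and 30 with RLE factors, 3, 4, 4, 4, 8, 76 and 11 with library totals only, and 0, 1, 0, 1, 8, 30 and 11 without a filter. DESeq2 called 3099, 4137, 1028, 3877, 3493, 6653 and 3493. limma called 0 in each except 5 average hCG calls with a pseudocount of 1 and 7 with 0.1; with 5 it called 0, and without a filter 0, 1, 1, 0, 0, 4 and 0. Fits on 2 groups called 4, 0, 0 and 0, the robust fit 0, 0, 0, 0, 2, 8 and 3, and the fit without the 3 libraries that stand apart 1, 2, 1, 1, 7, 17 and 4. With 1 library left out the ranges were 0 to 5, 0 to 8, 0 to 5, 0 to 8, 2 to 14, 2 to 39 and 3 to 18. With a replicate block the counts were 7, 8, 1, 4, 11, 24 and 7, and Inha for cKO against CTL after hCG stood at 0.0221. Correlations of same-numbered libraries were weak: 7 of 18 pairs had r over 0.1, with a median of 0.0429 and a lowest of -0.0366. Other pairs had a median of -0.0206, and 9 of 12 libraries correlated best with their own number. Libraries of a number may thus share something, which the reported fit and the permutation tests do not take into account. The block changed no member's call.

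Signs of small member values turned as follows, and the cause was not tested. Fshr for hCG in cKO became 0.0611 with RLE factors, 0.061 with DESeq2, 0.0251 without a filter and 0.77 without the 3 libraries. Inha for hCG in cKO became -0.26 with library totals and -0.33 with limma at every pseudocount and without a filter. For cKO after hCG, Fshr became -0.37 with limma (pseudocount 1, with or without a filter) and -1.33 with a pseudocount of 0.1, and Lhcgr -0.15, -0.18 and -0.0799 with pseudocounts of 1, 0.1 and 5. The Inha interaction became -0.31 with library totals, -0.37 with limma and -0.33 without the 3 libraries. For average hCG, Inha became -0.11 with library totals and -0.14 with limma, and Inhba -0.67 with library totals and -0.80, -0.83 and -0.71 with limma at pseudocounts of 1, 0.1 and 5. Without the 3 libraries the average cKO values of Fshr and Lhcgr became 0.0703 and 0.26. The average cKO difference of the Inhba to Inha ratio passed with a pseudocount of 0.1 (-1.59) and with CPM (-1.59). With 1 library left out, ranges that cross 0 were -2.09 to 0.77 for Fshr with hCG in cKO, -0.41 to 0.34 for Inha and cKO before hCG, and -0.91 to 2.50, -0.29 to 0.71 and -0.38 to 0.29 for Fshr, Lhcgr and Inha and cKO after hCG. They were -0.38 to 0.38 for the Inha interaction, -0.36 to 0.36 for Inhba and average hCG, and -1.24 to 0.46, -0.71 to 0.11 and -0.23 to 0.15 for Fshr, Lhcgr and Inha and average cKO. On the log2(TPM + 1) scale, Inha and average hCG ran from -0.41 to 0.12, the receptor ratio from -0.26 to 1.60 for hCG and from -0.50 to 1.36 for cKO, and the subunit ratio for cKO from -1.99 to -1.09. Counting intervals of the members were narrower than the spread between libraries; depth was not varied.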
